A study of Mus musculus with 12 samples.

Results

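The genes described are 10 circadian clock and clock output genes, Dbp, Tef, Nr1d1, Nr1d2, Per1, Per2, Per3, Cry1, Cry2 and Clock, chosen by name from the 46095 rows of a table of raw counts. All 10 had enough counts to be tested. RNA was sequenced from inflamed pancreas in 12 samples at postnatal day 56. Of these, 6 were wild type of the strain C57BL/6J (WT 1 to 6) and 6 came from animals lacking the receptor tyrosine kinases AXL and MERTK (Axl-/-Mertk-/-, AMKO 1 to 6). Per the labels and design text, every mouse, wild type included, had received 10 intraperitoneal doses of caerulein at 100 µg/kg, 1 each hour, and was killed 12 h after the first. Caerulein is a cholecystokinin analogue that overstimulates the acinar cells and causes acute pancreatitis. No untreated pancreas was analysed here. Those sources state neither the clock time of injection and killing nor the strain on which AMKO mice were bred. Receptor loss therefore cannot be told apart from background, or from a difference in time of day between the genotypes.

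The circadian clock is a transcriptional feedback loop present in most cells, the exocrine pancreas included. CLOCK and BMAL1 (gene Arntl) bind E-boxes and switch on the Per and Cry genes, whose proteins return to block CLOCK and BMAL1. The same pair drives the nuclear receptors REV-ERB alpha and beta (Nr1d1, Nr1d2), which repress Arntl, Nfil3 and other genes through ROR elements, and the output factors DBP and TEF, which activate genes through D-boxes. Samples taken at the same interval after dosing began, with the time of day not stated, give levels and not a rhythm.

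Libraries held 10668637 to 15184371 counts. Axl had 545 to 1086 counts in wild type and 66 to 187 in AMKO, whereas Mertk, whose whole-gene count does not show which exons were read, had 33 to 170 and 55 to 144. Acinar markers summed to 123800 to 249500 CPM (counts scaled to library size, with TMM factors), so the defining genes of exocrine pancreas were abundant in every library. Of 43 tested markers of 10 cell types, 3 differed between the genotypes, a share near the 5.78% of all genes tested that did. These were Ptf1a of acinar cells and Mrc1 of macrophages, which were higher in AMKO (log2 fold change 1.21, SE 0.26, and 0.81, SE 0.18), and Kdr of endothelium, which was lower (-0.83, SE 0.15). The summed level of each of the 10 lists overlapped between the genotypes, and none of the 48 listed markers was at 0 in all libraries. Neutrophil markers summed to 58.1 to 564 CPM in wild type, against 38.6 to 310 CPM in AMKO, with WT 3, WT 6, AMKO 3 and AMKO 6 lowest, and macrophage markers to 93.3 to 239 and 166 to 423 CPM. Adipocyte markers summed to 91.1 to 451 CPM in wild type, against 53.7 to 310 CPM in AMKO. B and plasma cell markers had a median of 26.1 CPM in wild type against 3.01 CPM in AMKO, with AMKO 1 and AMKO 5 apart at 166 and 67.8 CPM. Liver markers, albumin among them, stood at 1.97 to 11.4 CPM in WT 1 to 3 and at 19.9 to 49.6 CPM in WT 4 to 6 and AMKO. The part of these differences in the results below was not tested beyond leaving libraries out. In bulk tissue, fewer cells of a type and less RNA per cell cannot be told apart.

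Of the 10 clock genes, the output gene Dbp was lower and the repressor gene Cry1 was higher in AMKO, and the other 8 did not pass the test. These 2 calls of 10 stand beside 5.78% of the 13743 genes tested, 3.37% lower and 2.41% higher. The fitted log2 fold changes (AMKO minus wild type) were below 0 for 6 members and above 0 for 4, with a median of -0.30 against -0.002 over all genes tested. Dbp was the only member whose libraries did not overlap between the genotypes, as was the case for 3.54% of all genes tested. At an unadjusted p under 0.05, 6 of the 10 members would have passed, against 3008 of the 13743 genes. The test was edgeR's quasi-likelihood F test with Benjamini-Hochberg adjustment over all genes tested.

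**Figure D1:**
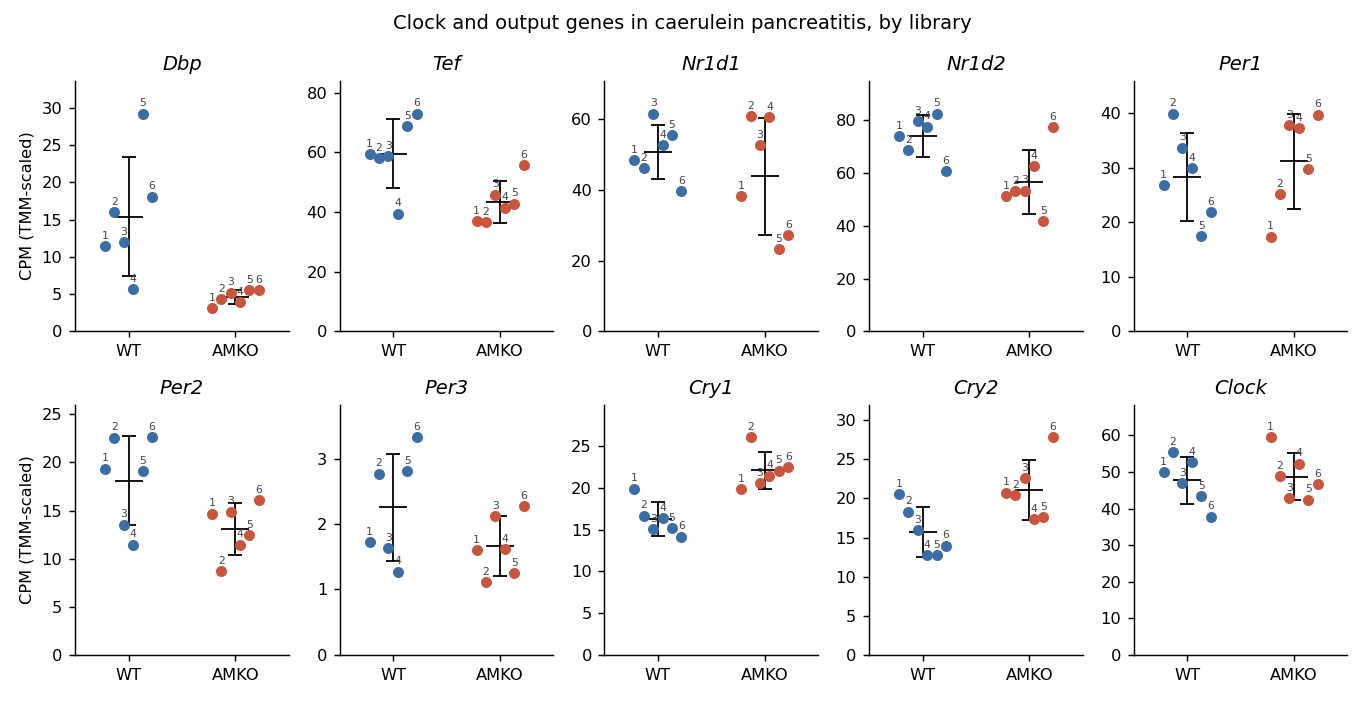
TMM-scaled CPM of each of the 10 clock and output genes in the 6 wild type (blue) and 6 AMKO (red) libraries, each point numbered by its replicate, with the mean and SD as a bar. Dbp lies at 5.69 to 29.2 CPM in wild type, against 3.15 to 5.52 CPM in AMKO, and Cry1 at 14.2 to 19.9 and 19.9 to 26.1 CPM.

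Dbp encodes a PAR-type basic leucine zipper factor that activates clock-controlled genes in liver, kidney and other tissues, and is among the most strongly rhythmic transcripts of mouse tissues. The gene lies on chromosome 7 (45705088 to 45710203, GRCm38, plus strand), 19.9 Mb from Axl on the same chromosome. Its level in wild type was 5.69 CPM in the lowest library, 14.0 CPM at the median and 29.2 CPM in the highest. In AMKO it was 3.15, 4.74 and 5.52 CPM. All 6 AMKO libraries lay below all 6 wild type libraries, but WT 4 at 5.69 CPM was close to AMKO 6 at 5.52 CPM. Mean levels were 15.4 ± 8.01 CPM and 4.59 ± 0.968 CPM (SD, n = 6 each), and the fitted log2 fold change was -1.75 (SE 0.31, adjusted p = 0.00569). By the size of its fall, Dbp ranked 17 among the 463 genes that were lower in AMKO. Wild type libraries also differed more among themselves, with the highest 5.14 times the lowest, against 1.75 times in AMKO. That difference in spread was not tested.

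The Dbp call held in all 12 fits that left out 1 library (adjusted p = 0.00184 to 0.0174), against WT 4 to 6 alone (-1.93, adjusted p = 0.0332) and against WT 1 to 3 alone (-1.52, adjusted p = 0.00619). Without the 4 libraries lowest in neutrophil markers the value was as large (-1.88, SE 0.42), but it did not pass (adjusted p = 0.0739), in a fit of 8 libraries that called 98 genes in all. The last 737 bp of the gene overlap Sphk2, a sphingosine kinase gene on the opposite strand. Since it is not stated whether counting used strand, the counts of both are uncertain. Sphk2 itself had means of 26.7 CPM (wild type) and 28.7 CPM (AMKO) (0.10 on the log2 scale, SE 0.11, adjusted p = 0.614).

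Tef encodes a close relative of DBP that binds the same D-boxes. Its level in wild type was 39.5, 59.0 and 73.0 CPM (lowest, median and highest library), and in AMKO 36.6, 42.1 and 55.7 CPM. Of the wild type libraries, 5 lay above all AMKO libraries, and WT 4, also the lowest for Dbp, lay among them. The log2 fold change of -0.46 (SE 0.14) did not pass the test (adjusted p = 0.0628). It would have passed by DESeq2 (adjusted p = 0.0307), and did without WT 4 or without AMKO 6 (adjusted p = 0.0167 and 0.0403). Hlf, the third PAR factor gene, was near the limit of these libraries at 0.934 to 3.05 CPM with a fitted difference of -0.31 (log2, SE 0.26, adjusted p = 0.526), which was -0.082 without WT 2.

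Cry1 encodes a cryptochrome that represses CLOCK and BMAL1. The gene lies on chromosome 10 (85131700 to 85185064, GRCm38, minus strand). Its level in wild type was 14.2, 15.8 and 19.9 CPM (lowest, median and highest library) and in AMKO 19.9, 21.8 and 26.1 CPM. Of the AMKO libraries, 5 lay above all wild type libraries, and AMKO 1 was level with WT 1. Means were 16.2 ± 2.02 and 22.1 ± 2.17 CPM (SD, n = 6 each), and the fitted log2 fold change was 0.44 (SE 0.10, adjusted p = 0.0192). The call was lost without AMKO 2 (adjusted p = 0.0517), with total-count scaling (0.0896), against WT 1 to 3 alone (0.36, adjusted p = 0.189) and without the 4 libraries lowest in neutrophil markers (0.39, adjusted p = 0.213). It held against WT 4 to 6 alone (0.55, adjusted p = 0.047).

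Cry2, the second cryptochrome gene, lies on chromosome 2, 36.3 Mb from Mertk. Its level in wild type was 12.7, 15.0 and 20.5 CPM (lowest, median and highest library), and in AMKO 17.4, 20.6 and 27.8 CPM. The fitted difference was about that of Cry1 but the libraries spread more widely, and the log2 fold change of 0.42 (SE 0.15) did not pass the test (adjusted p = 0.107). It was 0.69 (SE 0.16) against WT 4 to 6 alone and 0.20 (SE 0.16) against WT 1 to 3 alone, and it passed in none of the 24 alternatives (adjusted p = 0.0578 to 0.568).

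E-boxes, D-boxes and ROR elements are the sites through which the clock factors reach their target genes. Shown are promoters of the called clock genes with an entry (Dbp, Cry1 and Nfil3) and of Tef, whose product binds D-boxes. Per3, which was not called, is shown for its D-boxes, and Per1, which also held an E-box, is not shown. Windows run from 250 bases before to 50 after the RefSeq start (GRCm38.p6), 5′ to 3′, and capitals mark matches on either strand to the E-box CACGTG, the D-box TTANGTAA or the ROR element TAGGTCA. The searched motifs do not overlap each other in these windows.
Dbp, chr7:45704997-45705296, plus strand: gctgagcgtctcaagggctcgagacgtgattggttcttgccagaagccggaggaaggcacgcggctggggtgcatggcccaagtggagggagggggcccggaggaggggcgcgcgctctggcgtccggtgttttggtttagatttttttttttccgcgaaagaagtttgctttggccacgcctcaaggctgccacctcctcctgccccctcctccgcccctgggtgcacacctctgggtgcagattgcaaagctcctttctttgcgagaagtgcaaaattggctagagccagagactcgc
Tef, chr15:81811164-81811463, plus strand: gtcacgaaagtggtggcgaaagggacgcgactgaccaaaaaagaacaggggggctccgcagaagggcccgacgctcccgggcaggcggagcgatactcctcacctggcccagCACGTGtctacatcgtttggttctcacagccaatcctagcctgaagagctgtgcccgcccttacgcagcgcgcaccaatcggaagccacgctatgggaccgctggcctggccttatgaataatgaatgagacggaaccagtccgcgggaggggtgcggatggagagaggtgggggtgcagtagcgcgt
Cry1, chr10:85185005-85185304, minus strand: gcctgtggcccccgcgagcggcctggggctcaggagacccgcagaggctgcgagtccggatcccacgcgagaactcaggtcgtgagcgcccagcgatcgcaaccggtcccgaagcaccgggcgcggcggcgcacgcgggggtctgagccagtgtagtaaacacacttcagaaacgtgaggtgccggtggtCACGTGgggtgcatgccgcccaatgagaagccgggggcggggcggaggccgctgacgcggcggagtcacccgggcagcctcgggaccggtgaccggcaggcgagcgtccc
Per3, chr4:151044616-151044915, minus strand: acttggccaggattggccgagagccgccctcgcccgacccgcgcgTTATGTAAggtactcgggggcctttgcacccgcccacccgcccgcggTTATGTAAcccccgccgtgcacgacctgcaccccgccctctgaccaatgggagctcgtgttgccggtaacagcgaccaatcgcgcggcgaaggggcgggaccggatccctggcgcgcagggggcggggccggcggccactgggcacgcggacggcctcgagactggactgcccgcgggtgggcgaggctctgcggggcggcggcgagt
Nfil3, chr13:52980990-52981289, minus strand: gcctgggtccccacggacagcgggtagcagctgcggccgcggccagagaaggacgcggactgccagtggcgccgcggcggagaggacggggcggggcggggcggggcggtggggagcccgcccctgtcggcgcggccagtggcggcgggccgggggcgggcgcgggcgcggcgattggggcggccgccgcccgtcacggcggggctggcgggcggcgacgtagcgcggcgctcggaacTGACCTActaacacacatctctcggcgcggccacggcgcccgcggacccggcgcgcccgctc

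The Dbp window held none of these motifs. Cry1 had an E-box 60 bases before its start, and Tef, which has 2 windows in the table, an E-box in each, 127 and 138 bases before the start. Per3 had 2 D-boxes, 205 and 158 bases before its start, and Nfil3 a ROR element 12 bases before its start. In all, 9 of the 10 members had a window, and 3 of these 9 had an E-box (Tef, Per1 and Cry1), 1 a D-box and none a ROR element or the cyclic AMP element TGACGTCA. Some members had several windows, and counted by window, 4 of their 13 held an E-box and 1 a D-box. Among all 32851 windows of 300 bases in the table, 7.15% held the E-box, 2.32% the D-box, 2.61% the ROR element and 1.79% the cyclic AMP element. A match is a description of the letters and not of a bound site. Per2 and Bhlhe40 had no entry in the table.

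Among the Period genes, which encode the partners of the cryptochromes in repression, none passed the test, and their fitted values did not share a sign. Per1, which also responds quickly to light, cyclic AMP and glucocorticoids, was at 17.4, 28.4 and 39.9 CPM in wild type (lowest, median and highest library) and 17.3, 33.4 and 39.7 CPM in AMKO. The ranges were nearly the same (0.14 on the log2 scale, SE 0.22, adjusted p = 0.76), and the fitted value was below 0 against WT 1 to 3 alone (-0.11) and without the 4 libraries lowest in neutrophil markers (-0.07). Per2 was at 11.4, 19.2 and 22.6 CPM in wild type, against 8.74, 13.6 and 16.1 CPM in AMKO. Of the wild type libraries, 4 lay above all AMKO libraries, and WT 3 and WT 4 lay among them (-0.47 on the log2 scale, SE 0.19, adjusted p = 0.148). Per3 had only 14 to 50 counts per library, at 1.27 to 3.32 CPM in wild type, against 1.11 to 2.27 CPM in AMKO (-0.45 on the log2 scale, SE 0.28, adjusted p = 0.369). Per3 lies wholly within the annotated span of Camta1 on the same strand, so its few counts are uncertain.

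The REV-ERB genes stood highest among the members per length of exon in wild type. Nr1d2 was at 60.9, 75.8 and 82.6 CPM in wild type (lowest, median and highest library) and at 41.9, 53.3 and 77.3 CPM in AMKO. Of the AMKO libraries, 4 lay below all wild type libraries, while AMKO 6 was level with WT 4. Its log2 fold change of -0.39 (SE 0.13) did not pass the test (adjusted p = 0.0853), but did without AMKO 6 (-0.49, adjusted p = 0.0213), with total-count scaling (0.0338) and by limma voom with quality weights (0.0479). Nr1d1 was at 39.7, 50.5 and 61.6 CPM in wild type, against 23.3, 45.6 and 60.9 CPM in AMKO. The AMKO libraries were spread out, with AMKO 5 and AMKO 6 at 23.3 and 27.3 CPM and the other 4 at 38.3 to 60.9 CPM. The log2 fold change was -0.21 (SE 0.22, adjusted p = 0.621), and it was -0.063 without AMKO 5, -0.10 without AMKO 6, and -0.32 without AMKO 2 or without AMKO 4. Nr1d1 overlaps 1075 bp of the opposite-strand gene Thra, which stood at 13.5 and 15.6 CPM (0.21, SE 0.17, adjusted p = 0.507), so its counts are uncertain in the same way as those of Dbp.

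Clock, a gene of the positive arm of the loop, was at 37.8, 48.4 and 55.4 CPM in wild type (lowest, median and highest library) and 42.5, 47.7 and 59.5 CPM in AMKO. The ranges overlapped almost fully, and the log2 fold change was 0.03 (SE 0.11, adjusted p = 0.891), turning below 0 against WT 1 to 3 alone (-0.06). Clock transcripts vary little over the day in most mouse tissues.

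Per length of exon, the members spanned a wide range of levels. In wild type Nr1d1 stood highest at 16.5 ± 2.49 CPM per kb, followed by Nr1d2 at 13.7 ± 1.48 and Tef at 7.57 ± 1.47 CPM per kb (SD, n = 6). Dbp, Per1 and Cry1 followed at 5.14 ± 2.68, 5.02 ± 1.44 and 4.86 ± 0.605 CPM per kb, and did not differ beyond their spread. Clock at 3.48 ± 0.469, Per2 at 3.09 ± 0.793 and Cry2 at 2.48 ± 0.506 CPM per kb came next, each within the spread of its neighbour, and Per3 was lowest at 0.235 ± 0.0851 CPM per kb. In AMKO Dbp stood at 1.53 ± 0.324 CPM per kb, below Cry2 at 3.34 ± 0.607, Clock at 3.55 ± 0.467 and Per2 at 2.23 ± 0.464 CPM per kb, and above Per3 at 0.173 ± 0.0481 CPM per kb.

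The other clock genes give the rest of the loop. Of 19 listed, 17 were tested, and 1 was higher (Nfil3) and 1 lower (Bhlhe40) in AMKO, again beside 5.78% of all genes tested. The median log2 fold change was 0.047, and none of the 17 was free of overlap between the genotypes, beside 3.54% of all genes tested. Rorb and Fbxl21 had too few counts to be tested. Nfil3 encodes a leucine zipper repressor that competes with DBP and TEF for D-boxes. It was at 14.2, 21.4 and 32.8 CPM in wild type (lowest, median and highest library) and 28.4, 36.9 and 58.8 CPM in AMKO. Of the AMKO libraries, 5 lay above all wild type libraries, and AMKO 1 lay below WT 3. The fitted difference was 0.84 on the log2 scale (SE 0.20, adjusted p = 0.0261). The call was lost when WT 2, WT 5, WT 6 or AMKO 2 was left out (adjusted p at most 0.0601), with WT 4 to 6 as the sole controls (1.05, adjusted p = 0.0541) and with WT 1 to 3 as the sole controls (0.66, adjusted p = 0.2).

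Bhlhe40 encodes DEC1, a repressor that binds E-boxes and also answers to hypoxia and other stress. It was at 91.3, 129 and 173 CPM in wild type (lowest, median and highest library) and 74.2, 79.2 and 95.8 CPM in AMKO. Only WT 5 and AMKO 4 lay out of order (-0.69 on the log2 scale, SE 0.13, adjusted p = 0.008). The call held in all 12 fits without 1 library and against WT 1 to 3 alone (adjusted p = 0.0116). With WT 4 to 6 as the sole controls it was lost (-0.56, adjusted p = 0.0932). Without the 4 libraries lowest in neutrophil markers neither Nfil3 nor Bhlhe40 passed (adjusted p = 0.0855 and 0.114), though their log2 fold changes were 0.91 and -0.69.

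**Figure D2:**
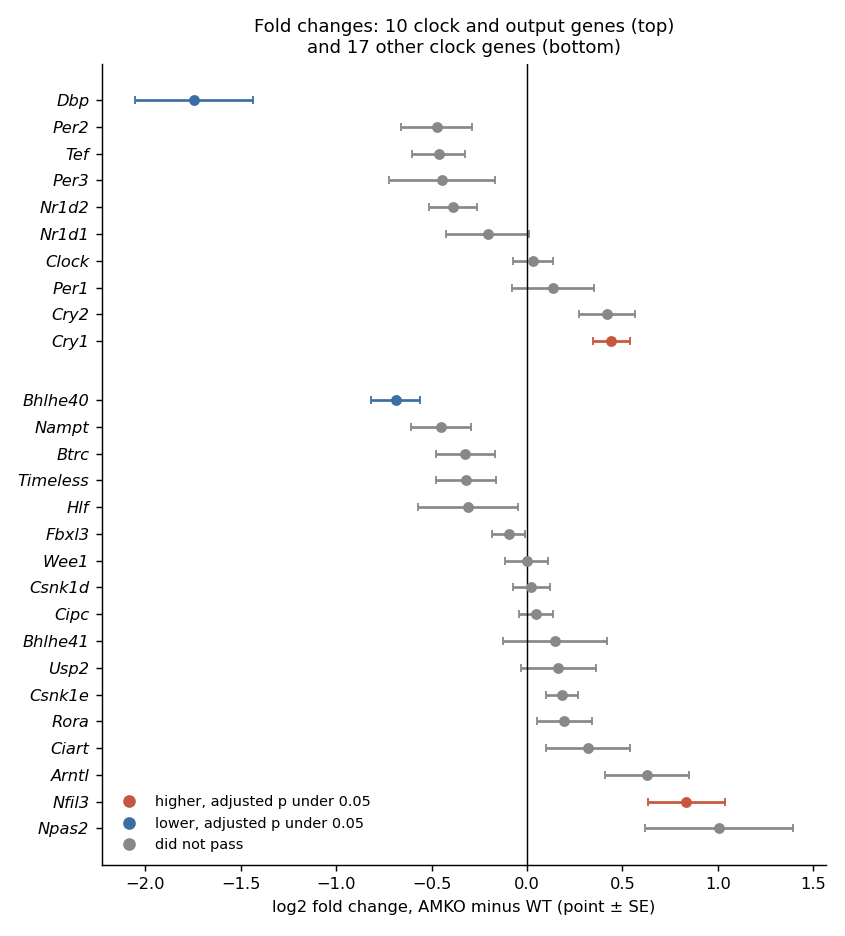
Log2 fold changes, AMKO minus wild type, with SE, of the 10 clock and output genes (top) and the 17 other clock genes tested (bottom), each block sorted by value and coloured by call. Dbp at -1.75 lies farthest from 0 in either block, Bhlhe40 at -0.69 is the other gene that was lower, and Cry1 and Nfil3 at 0.44 and 0.84 were higher.

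Of the positive arm, Arntl, which encodes BMAL1, was at 3.59, 4.91 and 6.60 CPM in wild type (lowest, median and highest library) and 4.98, 7.27 and 11.9 CPM in AMKO. Of the AMKO libraries, 4 lay above all wild type libraries, and the log2 fold change of 0.63 (SE 0.22) did not pass (adjusted p = 0.109). Npas2, the paralogue of Clock, was low at 0.399 to 2.45 CPM in wild type, against 1.47 to 4.45 CPM in AMKO (1.01, SE 0.39, adjusted p = 0.143). The ROR alpha gene Rora (0.19, SE 0.14, adjusted p = 0.46), the DEC2 gene Bhlhe41 (0.15, SE 0.28, adjusted p = 0.799) and Ciart, which encodes a repressor of CLOCK and BMAL1 (0.32, SE 0.22, adjusted p = 0.427), did not pass either.

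The balance of the D-box factors was set out library by library, since DBP, TEF and HLF activate where NFIL3 represses. Per kb of exon, Nfil3 was 0.939 to 6.40 times the level of Dbp in wild type (median 2.38) and 10.1 to 20.2 times in AMKO (median 11.9). Every AMKO library lay above every wild type library, and WT 4 was the nearest at 6.40. Against Tef, Nfil3 was 0.757 to 2.42 times as high in wild type and 2.77 to 6.23 times in AMKO, again with no overlap. The sum of Dbp, Tef and Hlf was 7.14 to 18.8 CPM per kb in wild type and 5.99 to 9.22 CPM per kb in AMKO, and Tef made up 46.6% to 70.2% of it in wild type and 72.7% to 78.5% in AMKO. Dbp and Nfil3 both differ by the test above, so these ratios describe the same libraries and are not further evidence.

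**Figure D3:**
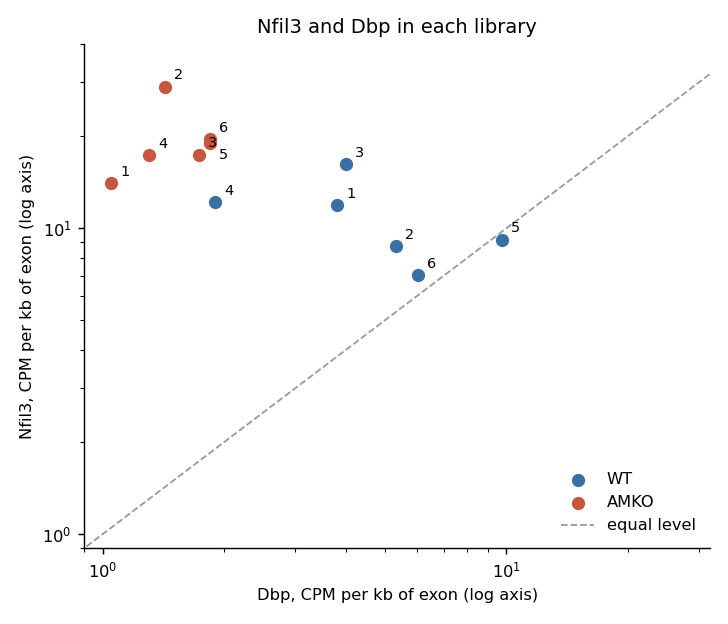
Nfil3 against Dbp, both in CPM per kb of exon on log axes, in the 6 wild type (blue) and 6 AMKO (red) libraries, numbered by replicate, with a dashed line where the levels are equal. WT 5, with a ratio of 0.939, is the library below the line, and the AMKO libraries lie farthest above it, with ratios of 10.1 to 20.2.

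Since Per1, Per2 and other clock genes answer to glucocorticoids, a list of 10 genes tied to glucocorticoids was set beside them. The list held Fkbp5, Tsc22d3, Zbtb16, Sgk1, Klf9, Dusp1, Cdkn1a, Errfi1, Ddit4 and Nr3c1, the last being the gene of the glucocorticoid receptor itself. Of the 9 tested, 1 was higher and 1 lower in AMKO, beside 5.78% of all genes tested, with a median log2 fold change of 0.26 against -0.002 over all genes. Cdkn1a, which encodes the cell cycle inhibitor p21, was at 155 to 220 CPM in wild type, against 205 to 314 CPM in AMKO (0.45, SE 0.11, adjusted p = 0.0309). Ddit4, an inhibitor of mTORC1 signalling that stress also induces, was at 305 to 526 CPM in wild type, against 250 to 336 CPM in AMKO (-0.63, SE 0.14, adjusted p = 0.0188). Tsc22d3, which encodes GILZ, had a fitted difference of 0.54 (SE 0.21) that did not pass (adjusted p = 0.136), and Fkbp5 was too low in most libraries to be tested. Fkbp5 stood at 10.1 CPM in WT 1, against 0.266 to 1.42 CPM in the other wild type libraries and 0.477 to 1.02 CPM in AMKO. WT 4 was the highest wild type library for Tsc22d3, Zbtb16, Sgk1, Klf9 and Dusp1, but not for the other genes of this list. Neither Cdkn1a nor Ddit4 passed with WT 4 to 6 as the sole controls (adjusted p = 0.217 and 0.143) or without the 4 libraries lowest in neutrophil markers (0.119 and 0.226). With WT 1 to 3 as the sole controls Ddit4 passed (0.0463) and Cdkn1a did not (0.102). The Cdkn1a call failed in 7 of 12 when single libraries were left out (without WT 1, 2, 4 or 5 or AMKO 2, 3 or 4), that of Ddit4 in 2 (without WT 1 or AMKO 3).

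Libraries of 1 genotype also differed in their clock genes. WT 4 was the lowest wild type library for Dbp, Tef, Per2 and Per3, and WT 6 the highest for Tef, Per2 and Per3. To see which members varied with Dbp, log2 CPM (prior count of 2) was centred within each genotype, and Dbp was set against the other 9 members over the 12 libraries. Tef passed the test (Pearson r = 0.831, permutation p = 0.00275, adjusted p = 0.0247 over 9 relations; Spearman rho = 0.734, permutation p = 0.00898, adjusted p = 0.0555). Per3 (r = 0.70, adjusted p = 0.0876; rho = 0.706), Per2 (r = 0.575, adjusted p = 0.187; rho = 0.517) and Clock (r = -0.612, adjusted p = 0.143; rho = -0.734) did not pass by permutation. The other 5 members had r between -0.21 and 0.03. Clock passed without WT 2 (r = -0.734, adjusted permutation p = 0.0451) and Per3 without AMKO 5 (r = 0.78, adjusted permutation p = 0.0334). Within AMKO r with Clock was -0.949 (exact permutation p = 0.00556, n = 6), at the threshold after adjustment (0.05). Within wild type it was -0.546 (adjusted exact permutation p = 0.47, n = 6). WT 4 and WT 5 lay farthest from the median of centred Dbp, at -1.25 and 1.08. Without them r with Tef was 0.712 (permutation p = 0.0312, adjusted p = 0.141), and the call was lost. Without WT 4 alone r with Tef was 0.641 (adjusted permutation p = 0.197), but without WT 5 alone it was 0.870 and passed (adjusted permutation p = 0.0202). The call was also lost without WT 6 or without AMKO 1, where r was 0.830 and 0.817 (adjusted permutation p = 0.0516 and 0.0562). Without WT 5 and WT 6, which were farthest before centring, r with Tef was 0.831 (adjusted permutation p = 0.0954). Within wild type r with Tef was 0.893 (exact permutation p = 0.0278, n = 6) and within AMKO 0.734 (exact permutation p = 0.0917, n = 6), and neither passed after adjustment (0.125 and 0.275).

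Among 11182 other genes, those most like Dbp in this centred measure over the 12 libraries were Lrrc28 (r = 0.920), Acaa2 (0.893), Arl2 (0.891), Aars2 (0.876) and Mipep (0.872). Dbp fell in AMKO, whereas Acaa2, a thiolase of mitochondrial fatty acid oxidation, rose from 19.9 ± 3.41 to 32.9 ± 2.56 CPM (SD, n = 6 each; log2 fold change 0.73, SE 0.11, adjusted p = 0.00237). The other 4 did not pass the test (log2 fold changes -0.13 to 0.15). These were the highest of many correlations over 12 libraries, which share depth and tissue makeup, and are given as a description.

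**Figure D4:**
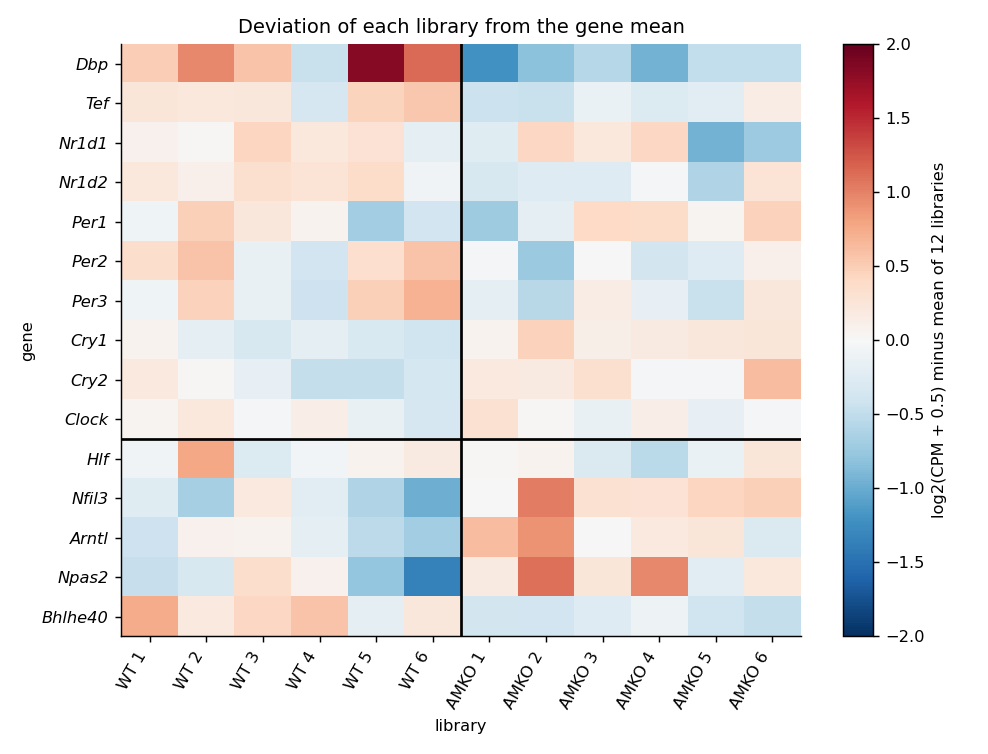
Deviation of log2(CPM + 0.5) from the mean of the 12 libraries for the 10 clock and output genes (above the line) and 5 other clock genes (below it), by library, red above and blue below the mean. Dbp is below its mean in WT 4 and all 6 AMKO libraries, and Bhlhe40 is below its mean in WT 5 and all 6 AMKO libraries.

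**Figure D5:**
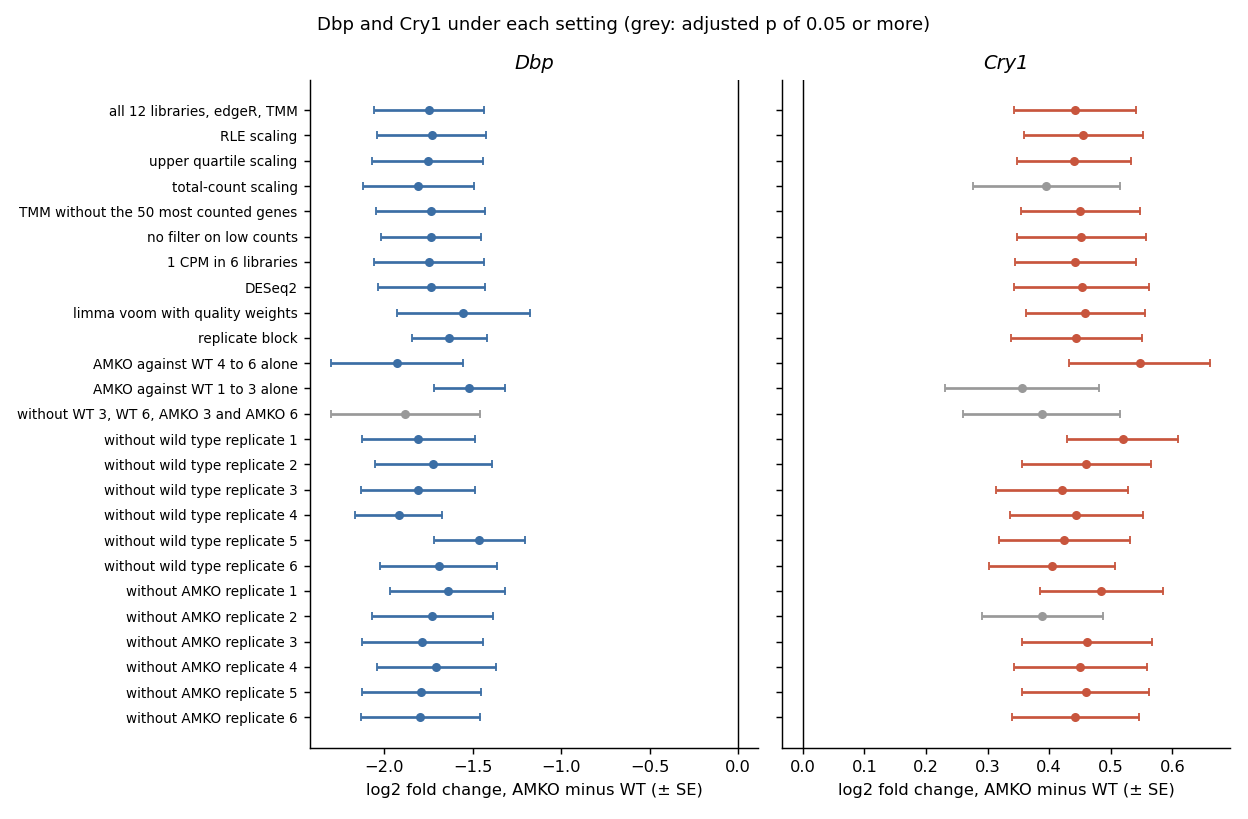
Log2 fold changes of Dbp and Cry1 with SE under each of the 24 alternatives and with all 12 libraries (top), grey where the adjusted p was 0.05 or more. Dbp lay between -1.93 and -1.46 and passed in 23 of the 24, and Cry1 lay between 0.36 and 0.55 and passed in 20.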

How the data were processed

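RNA from 12 pancreas samples was sequenced. The submitters' processing notes name HISAT2 2.0.4 and mm10, and nothing used here states the counter, the annotation, the use of strand or the treatment of reads with several matches. Each deposited value is a whole-number count per gene symbol, not normalized. Columns were matched to samples by title.

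AMKO was set against wild type with edgeR 4.0.16 under R 4.3.3. Genes were kept by filterByExpr, libraries scaled by TMM, and the model held genotype alone. P-values of the quasi-likelihood F test were adjusted over the 13743 genes kept (Benjamini-Hochberg). A gene was called at an adjusted p under 0.05. The members and lists were chosen with earlier results of these data known. Genes given with their values are all 10 members, called genes of the list of other clock genes and a fixed set of its others. So are called genes of the glucocorticoid list, with Fkbp5 and Tsc22d3 besides. The rest are the 5 genes most correlated with Dbp among those averaging log2 CPM 1 or more. The labels do not say that samples came from separate mice, so p-values measure the spread between samples. No pair of libraries within a genotype looked like a repeat of 1 library (chi-square over its degrees of freedom, 9.15 to 66.6).

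CPM per kb uses the union of GENCODE M21 exons (GRCm38, which mm10 names). Promoters are RefSeq windows. Some results are not reported here. Overlapping genes come from GENCODE, and near-identical transcripts (95% over 300 bp) from BLAST 2.17.0. For Dbp, BLAST found Sphk2, the gene that overlaps it on the opposite strand, and for Nr1d2 a gene that is no row of the table. Correlations used 100000 permutations within genotype, or exact ones within 1 genotype. Alternatives were 3 other scalings, TMM without the 50 most counted genes, no filter or 1 CPM in 6 libraries, DESeq2 1.42.0, limma 3.58.1 voom with quality weights, the replicate number as a block, WT 4 to 6 or WT 1 to 3 alone, 4 libraries left out together, each library left out, and, for correlations, the pairs farthest in Dbp.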

Additional observations from a re-analysis of the deposited data

Results flagged for a closer look

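In 50 sets of 6 libraries (25 named genes in each genotype), 2 held a library far from the other 5, where chance gives about 5% of sets. Nfil3 stood at 58.8 CPM in AMKO 2, against 28.4 to 39.8 CPM in the other AMKO libraries, and without AMKO 2 its call was lost. Hlf stood at 3.05 CPM in WT 2, against 1.22 to 1.86 CPM in the other wild type libraries.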

How the results depend on the processing

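Of 240 recomputed fold changes of the members (10 genes under 24 alternatives), 235 kept their sign, 5 calls were lost and 7 gained. Members called numbered 2, but 1 against WT 1 to 3 alone, 0 by edgeR without WT 3, WT 6, AMKO 3 and AMKO 6, and 1 to 4 without 1 library (1 without AMKO 2, 4 without AMKO 6). Genes called over the whole table numbered 794, but 456 with total-count scaling, 1295 by DESeq2, 1664 by limma voom, 167 against WT 4 to 6 alone, 231 against WT 1 to 3 alone, 98 without the 4 libraries, and 411 to 1140 without 1 library (524 without WT 2, 505 without WT 4, 421 without AMKO 2, 411 without AMKO 3). The cause was not tested. Against WT 1 to 3 alone, the log2 fold changes of Per1 (-0.11), Clock (-0.058) and Rora (-0.012) turned below 0, as did Per1 (-0.067) and Bhlhe41 (-0.10) without the 4 libraries. Without 1 library Clock ran from -0.027 to 0.091 and Bhlhe41 from -0.0185 to 0.28. The number of members correlated with Dbp was 1, but 0 within wild type, within AMKO, without WT 5 and WT 6, and without WT 4 and WT 5 (an alternative chosen after seeing the data), and 0 to 2 without 1 library (0 without WT 4, WT 6 or AMKO 1). Weak correlations changed sign. Within AMKO, r was 0.083 for Nr1d2, 0.729 for Per1 and 0.258 for Cry1. Within wild type it was -0.07 for Cry2, and without WT 5 and WT 6 it was 0.546 for Per1 and 0.145 for Cry1. Without WT 4 and WT 5 it was 0.41 for Per1 and -0.02 for Cry2. Without 1 library r ran from -0.232 to 0.092 for Nr1d2, from -0.435 to 0.246 for Per1 and from -0.355 to 0.362 for Cry2. With the replicate number as a block, 3 members were called, Tef being added, and 910 genes in all. Deviations of same-numbered libraries correlated at -0.16 to 0.346, and 2 of 6 numbers gave the best match. WT 3, WT 6, AMKO 3 and AMKO 6 were also the libraries lowest in neutrophil markers. No label ties a number to a batch, and these values do not settle whether same-numbered libraries share one. Depth limits Per3, Hlf and Npas2, which had few counts.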
